A study of Mus musculus with 4 samples.

Results

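The 10 genes described here encode growth factors, their receptors and metabolic regulators that have been tied to running: Igf1, Igf1r, Insr, Vegfa, Fgf2, Fgfr1, Fndc5, Ppargc1a, Esrra and Esrrg. They were chosen by name from the 32285 genes counted in all 4 libraries, and each of the 10 had UMIs (unique molecular identifiers, one per captured RNA molecule) in every library. The libraries are single-nucleus RNA sequencing of frozen hippocampus from female C57BL/6J mice, 8 weeks old at the start and housed for 10 weeks. One library came from App NL-G-F knock-in mice with exercise, one from App NL-G-F knock-in mice without exercise, one from wild-type (WT) mice with exercise and one from WT mice without exercise. The knock-in carries a humanised amyloid precursor protein gene with disease mutations at its own locus, and exercise was voluntary running in a cage with a wheel. The number of mice behind each library is not stated in the sources used here, and the treatment text names a wheel for every sample, so the groups follow the sample titles and treatment labels. With 1 library per group there was no test between groups: every ratio below compares 2 libraries, and its interval covers counting error only.

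IGF1 and insulin act through a pair of related receptor tyrosine kinases, encoded by Igf1r and Insr, that signal through PI3 kinase and AKT to growth, survival and glucose use. VEGFA is the main growth factor of blood vessels, FGF2 is a heparin-binding growth factor that signals through receptors including FGFR1, and FNDC5 is the membrane precursor of irisin, a peptide released by exercising muscle. PGC-1α, encoded by Ppargc1a, is a coactivator that drives mitochondrial genes together with the estrogen-related receptors encoded by Esrra and Esrrg, and in the forebrain it is best known from parvalbumin interneurons.

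The nuclei were grouped into cell classes by markers, and each class name means "like that type". Of 34744 nuclei kept, 8745 came from the knock-in library with exercise, 9278 from the knock-in library without exercise, 6508 from the WT library with exercise and 10213 from the WT library without exercise. Levels are given for 16 classes as UMIs of the gene per 1000000 UMIs of the class (CPM), and ratios for the 10 classes that had at least 50 nuclei in every library. The knock-in library without exercise stood apart: Malat1 took 9.52% of its UMIs, against 3.21% to 6.03% in the other libraries, and it held 11247 UMIs of the choroid plexus gene Ttr, against 28 to 432. This library enters both the exercise comparison in the knock-in and the genotype comparison without exercise, and without it neither has a value. Granule neurons, CA1 neurons and oligodendrocytes fell into different clusters in different libraries: cluster 1 held 96.6% of the granule neurons of the knock-in library with exercise, and cluster 3 held 59.5% of the CA1 neurons of the WT library with exercise, where cluster 2 was the largest in the other 3 libraries with 52.1% to 53.7%. The oligodendrocytes lay mainly in cluster 6 in the knock-in library with exercise, cluster 7 in the knock-in library without exercise and cluster 5 in the WT libraries. From 20 to 42 cell barcodes were shared between any pair of libraries.

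A gene was called past the fold in a class when it had at least 50 UMIs over both libraries, differed at least 1.5-fold and had a 95% counting interval that excluded no change. With exercise in the knock-in, 35 of the 80 measured pairs of a gene and a class were past the fold upwards and 1 downwards, which is 43.75% and 1.25%, beside 24.0% and 15.1% of all genes measured over the same classes (39.1% in either direction). With exercise in WT, 2 of 77 pairs were past the fold upwards and 10 downwards (2.60% and 12.99%), beside 1.97% and 7.12% of all genes (9.09% in either direction). In the knock-in against WT without exercise, 0 of 76 pairs were past the fold upwards and 20 downwards (26.3%), beside 10.5% and 10.0% of all genes (20.5% in either direction). In the knock-in against WT with exercise, 22 of 80 pairs were past the fold upwards and 0 downwards (27.5%), beside 21.8% and 5.95% of all genes (27.7% in either direction). Scaling moved these splits for exercise in WT, to 3 higher and 7 lower with TMM factors and 4 and 5 when centred on genes of like length, and for the genotypes with exercise, to 17 and 2 with TMM factors and 15 and 2 when so centred. The other comparisons kept their direction with fewer calls. With TMM factors exercise in the knock-in gave 24 higher and 1 lower, and the genotypes without exercise 1 and 12. The shares over all genes are those of the main scaling only. The 4 comparisons use the same 4 libraries in pairs, so a low library in one is a low library in the next.

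The median gene was not at 0 in these ratios. It lay between 0.06 and 0.31 on the log2 scale over the 10 classes for exercise in the knock-in, between -0.17 and -0.06 for exercise in WT, between -0.18 and -0.03 for the knock-in against WT without exercise, and between 0.05 and 0.28 for the knock-in against WT with exercise. The ratios also moved with gene length, with a Spearman coefficient across genes of 0.06 to 0.57 over the classes for exercise in the knock-in and its highest value in oligodendrocytes. The 10 genes span 7.60 kb (Fndc5) to 606 kb (Esrrg). Ratios were therefore also centred on the median of measured genes of like length, a step chosen after the data were seen, and where it changes a call given for one of the 10 genes this is said with the result. The part of gene length and depth in the results was not tested.

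Among the ligands, Igf1 was concentrated in inhibitory neurons. Inhibitory neurons of the caudal ganglionic eminence (CGE) type, 2.29% of all kept nuclei, held 54.5% of all Igf1 UMIs, the medial ganglionic eminence (MGE) type held 15.8% and the Lamp5 type 8.37%. In CGE neurons the Igf1 level was 234 CPM in the knock-in library with exercise, 225 CPM in the knock-in library without exercise, 264 CPM in the WT library with exercise and 291 CPM in the WT library without exercise. All 4 of these levels lay above those of every other class in the same libraries, and the ranges did not overlap with the next class by median, Lamp5 neurons at 36.2 to 81.1 CPM. Igf1 was one of the variable genes on which nuclei were clustered, and the only one of the 10, so this concentration is a description. Within the CGE class the pooled Igf1 level differed between sub-clusters, from 57.2 to 454 CPM. CA1, CA3 and granule neurons had medians of 1.24, 0.49 and 0.99 CPM.

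Igf1 in CGE neurons differed little with exercise, by a log2 ratio of 0.05 in the knock-in and -0.14 in WT. In MGE neurons Igf1 was at 51.3 CPM (166 UMIs) in the knock-in library with exercise, 36.9 CPM (107 UMIs) in the knock-in library without exercise, 21.6 CPM (59 UMIs) in the WT library with exercise and 43.1 CPM (185 UMIs) in the WT library without exercise. The WT library with exercise was the lowest, at a log2 ratio of -0.99 (95% counting interval -1.44 to -0.56) to the WT library without exercise. The same library was lowest in Lamp5 neurons, at 36.2 CPM, where the other libraries lay between 75.9 and 81.1 CPM, and its log2 ratio for exercise was -1.16 (-1.76 to -0.60). Both values remained past the fold when centred on genes of like length. In the knock-in, exercise gave 0.48 (0.12 to 0.84) in MGE neurons and 0.03 in Lamp5 neurons, neither past the fold.

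**Figure D1:**
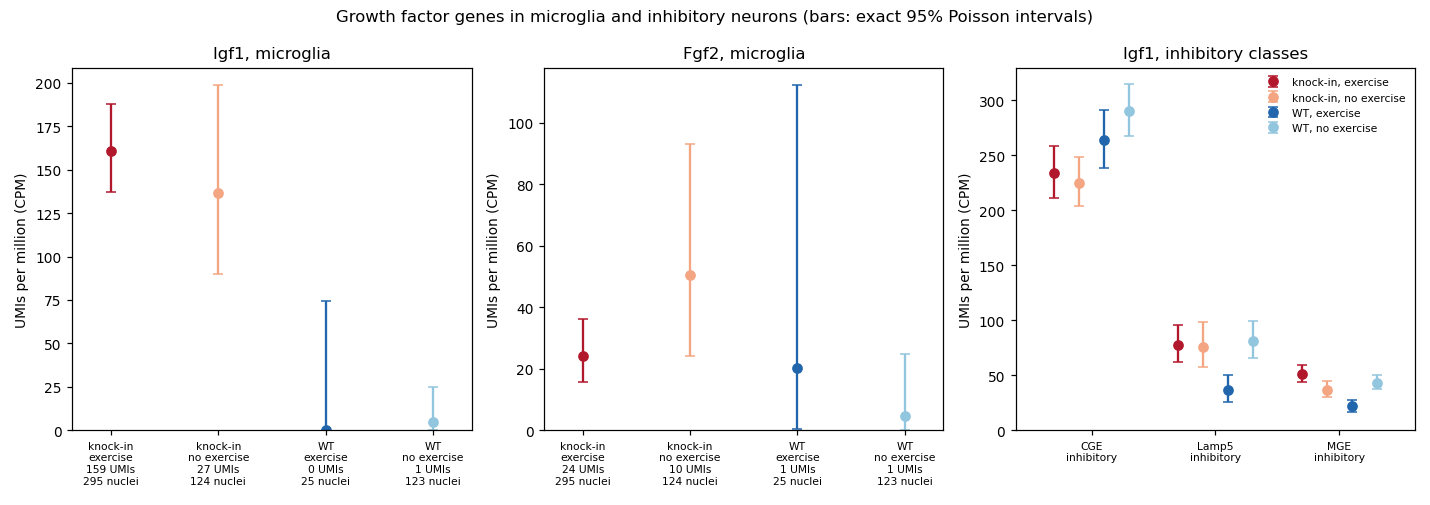
Levels in CPM of Igf1 and Fgf2 in microglia and of Igf1 in CGE, Lamp5 and MGE inhibitory neurons, with 1 point per library and bars for the exact 95% Poisson interval. Microglial Igf1 is at 161 and 137 CPM in the knock-in libraries and at 0 and 4.47 CPM in the WT libraries.

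In microglia, which are known to produce IGF1, Igf1 separated the libraries by genotype. The level was 161 CPM (159 UMIs) in the knock-in library with exercise and 137 CPM (27 UMIs) in the knock-in library without exercise, against 0 UMIs in the WT library with exercise and 1 UMI, or 4.47 CPM, in the WT library without exercise. The knock-in libraries had 295 and 124 microglial nuclei, and the WT libraries with and without exercise 25 and 123; in the library with 25, the count of 0 is below a floor of 3 UMIs, or 60.5 CPM, and its exact Poisson interval reaches 74.4 CPM. Without exercise, where nuclei were about equal in number, the log2 ratio of the knock-in to WT was 4.93 (95% counting interval 2.33 to 10.29), on 28 UMIs in all and so below the 50 needed for a call. Exercise in the knock-in gave 0.24 (-0.36 to 0.88) for microglial Igf1, not past the fold, while Igf1r at 0.75, Esrrg at 0.99 and Fgfr1 at 2.29 (49 against 2 UMIs) were past it, beside 33.4% of the genes measured in that class. Of these only Fgfr1 stayed past it when centred on genes of like length, and over all settings its ratio ranged from 0.11 to 2.35. Without exercise the knock-in was lower than WT in microglial Insr, at -1.25, and Igf1r, at -0.66, beside 22.5% of genes past the fold, and only Insr stayed there when so centred. Microglial Fgf2 was at 24.3 CPM (24 UMIs) in the knock-in library with exercise and 50.6 CPM (10 UMIs) in the knock-in library without exercise, against 20.2 CPM (1 UMI, exact Poisson interval 0.51 to 112 CPM) in the WT library with exercise and 4.47 CPM (1 UMI) in the WT library without exercise. The knock-in and WT libraries with exercise could not be told apart in Fgf2 at this depth. The CGE marker list (8 genes) summed in microglia to 827 CPM (7 genes detected) in the knock-in library with exercise, 759 CPM (7 genes) in the knock-in library without exercise, 686 CPM (3 genes) in the WT library with exercise and 451 CPM (5 genes) in the WT library without exercise. Adarb2 gave most of these UMIs, and Htr3a was at 0 in all but the knock-in library without exercise. The part of CGE RNA in the microglial Igf1 level was not tested.

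With exercise in the knock-in, Vegfa gave the largest ratio of the 10 genes in CA1, subicular and granule neurons. Its promoter is printed because the gene differed between libraries in most classes. The window runs from 250 bases before to 50 bases after the annotated start (RefSeq, GRCm38.p6, chr17:46032328-46032627, minus strand), written 5′ to 3′, with capitals marking 2 matches to the GC box GGGCGG:
Vegfa: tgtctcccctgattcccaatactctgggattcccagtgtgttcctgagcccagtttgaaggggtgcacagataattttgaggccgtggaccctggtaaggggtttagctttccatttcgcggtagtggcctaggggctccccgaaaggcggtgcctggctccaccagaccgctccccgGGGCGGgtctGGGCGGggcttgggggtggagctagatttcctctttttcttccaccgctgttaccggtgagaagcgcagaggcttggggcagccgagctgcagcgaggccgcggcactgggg
This motif, searched on both strands, was in 6 of the 8 genes of the set that have an entry, a gene being counted if any of its windows held it. Counted by single window rather than by gene, it was in 35.7% of 32851 promoter windows of the same length, so it is common.

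Astrocytes and oligodendrocyte precursors had the highest Vegfa levels, with medians over libraries of 120 and 109 CPM and overlapping ranges, and endothelial nuclei had 0 UMIs in all 4 libraries. In CA1 neurons Vegfa was at 17.2 CPM (221 UMIs) in the knock-in library with exercise, 4.78 CPM (59 UMIs) in the knock-in library without exercise, 6.30 CPM (76 UMIs) in the WT library with exercise and 10.8 CPM (195 UMIs) in the WT library without exercise. The knock-in library with exercise was the highest and the knock-in library without exercise the lowest. The same 2 libraries were highest and lowest in granule neurons, at 8.85 CPM with exercise and 3.05 CPM without it, against 4.36 CPM in the WT library with exercise and 5.85 CPM in the WT library without exercise.

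With exercise in the knock-in, Vegfa was past the fold upwards in 7 of 9 measured classes. The log2 ratio was 1.84 (95% counting interval 1.42 to 2.28) in CA1, 1.75 (1.13 to 2.42) in subicular excitatory neurons, 1.54 (1.02 to 2.08) in granule neurons, 1.48 (0.98 to 2.01) in MGE neurons and 1.02 (0.42 to 1.65) in CA3 neurons. Oligodendrocyte precursors gave 1.10 (0.31 to 1.99) and oligodendrocytes 0.87 (0.20 to 1.59). Centred on genes of like length, Vegfa was past the fold in 8 classes, with a median of 1.40 over classes. Depth differed between the libraries too. The median CA1 nucleus had 9208 UMIs with exercise and 7196 UMIs without exercise in the knock-in, and 10732 and 8992 UMIs in WT. The inhibitory marker list summed in CA1 nuclei to 144 CPM in the knock-in library with exercise and 35.4 CPM in the knock-in library without exercise. It summed to 35.2 CPM in the WT library with exercise and 64.1 CPM in the WT library without exercise. All 8 genes of that list were detected in each, and Erbb4 gave 1312 of its UMIs in the knock-in library with exercise, 197 in the knock-in library without exercise, 254 in the WT library with exercise and 717 in the WT library without exercise. The part of depth or of inhibitory RNA in the ratio was not tested.

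In WT the ratio of Vegfa with exercise was above 0 in 3 of 10 classes. Vegfa was past the fold downwards in 5 of 10 classes: Lamp5 neurons at -1.24 (-2.16 to -0.39), CA3 at -0.97 (-1.55 to -0.41), CA1 at -0.78 (-1.18 to -0.39), oligodendrocyte precursors at -0.77 (-1.61 to -0.00) and astrocytes at -0.70 (-1.14 to -0.27). After centring on genes of like length 3 of these remained, in CA3, Lamp5 neurons and astrocytes, while CA1 at -0.51 and the precursors at -0.56 did not. Against WT, the knock-in was lower in Vegfa without exercise in 7 of 10 classes, by -1.18 in CA1, and higher with exercise in 6 of 9 classes, by 1.45 in CA1. When centred on genes of like length these counts were 8 and 5.

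**Figure D2:**
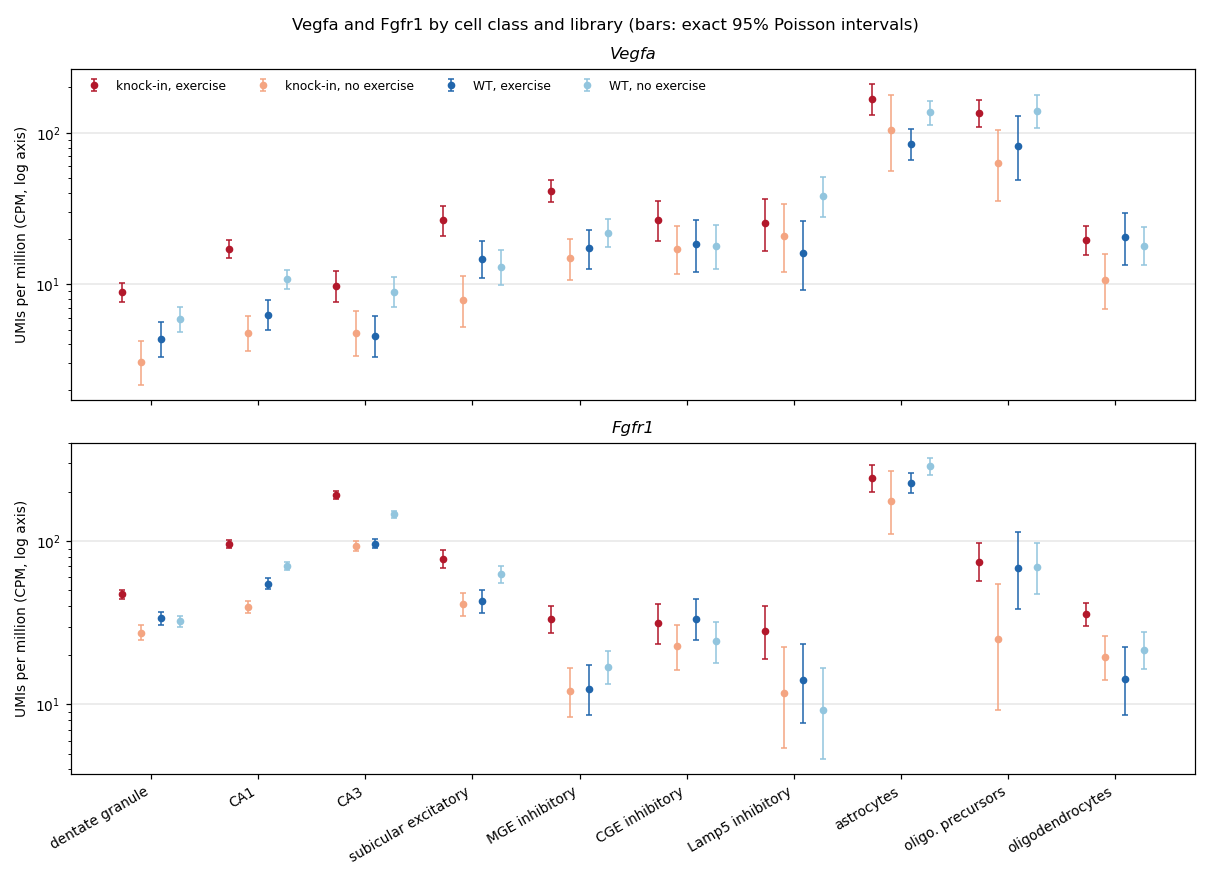
Vegfa and Fgfr1 levels in CPM (log axis) by class, with 1 point per library and bars for the exact 95% Poisson interval. The knock-in library with exercise is highest for both genes in CA1, CA3, subicular and MGE neurons.

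Fgf2 was low in every neuron class, and CA3 neurons had its highest neuronal median, 8.54 CPM. The CA3 level was 9.84 CPM (72 UMIs) in the knock-in library with exercise, 5.47 CPM (40 UMIs) in the knock-in library without exercise, 7.25 CPM (65 UMIs) in the WT library with exercise and 11.6 CPM (105 UMIs) in the WT library without exercise. WT without exercise was highest and the knock-in without exercise lowest. With exercise in the knock-in all 3 measured classes were past the fold upwards, granule neurons at 1.39, CA3 at 0.85 and CA1 at 0.76. When nuclei were thinned to 1500 UMIs each, the CA1 value was -0.12 and the CA3 value -0.01, so only the granule value kept its sign there. In WT, Fgf2 was past the fold downwards with exercise in CA3, at -0.68. Of these 4 calls the granule one alone stayed past the fold when centred on genes of like length.

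Among the receptors, Fgfr1, a receptor for FGF2 and other fibroblast growth factors, was highest in astrocytes, with a median of 235 CPM, and of the neurons in CA3, with a median of 121 CPM. The CA3 range of 93.5 to 191 CPM met that of the next neuron class, CA1, at 39.6 to 96.0 CPM. In CA3 neurons it was at 191 CPM (1398 UMIs) in the knock-in library with exercise, 93.5 CPM (684 UMIs) in the knock-in library without exercise, 96.6 CPM (866 UMIs) in the WT library with exercise and 146 CPM (1319 UMIs) in the WT library without exercise. As for Vegfa in CA1, the knock-in library with exercise was highest and the knock-in library without exercise lowest. With exercise in the knock-in Fgfr1 was past the fold upwards in 7 of 9 measured classes, at 1.57 in oligodendrocyte precursors, 1.47 in MGE neurons, 1.28 in CA1, 1.03 in CA3, 0.92 in subicular neurons, 0.87 in oligodendrocytes and 0.78 in granule neurons. Centring on genes of like length also left 7 classes past the fold. In WT only CA3 was past the fold with exercise, at -0.59, a call lost when so centred (-0.44), where CGE neurons were past the fold upwards (0.60). Against WT the knock-in was lower without exercise in CA1, CA3, subicular neurons and astrocytes, at -0.83 to -0.61, and higher with exercise in 5 classes, at 0.81 to 1.42. When so centred, CA1 alone stayed past the fold without exercise, and 4 classes, without CA1, stayed past it with exercise.

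Igf1r, the IGF1 receptor gene, was highest in cells of the vessel wall. Endothelial nuclei had 2522 CPM (99 UMIs) in the knock-in library with exercise, 1647 CPM (18 UMIs) in the knock-in library without exercise, 2925 CPM (346 UMIs) in the WT library with exercise and 3655 CPM (342 UMIs) in the WT library without exercise. The endothelial median of 2724 CPM stood above the pericyte median of 1341 CPM and the smooth muscle median of 872 CPM, though the endothelial and pericyte ranges overlapped, and endothelial nuclei numbered only 17 and 6 in the knock-in libraries. Among the neuron classes with ratios CA3 had the highest median, 323 CPM. With exercise in the knock-in Igf1r was higher in all 10 classes, at 0.19 to 0.81, and past the fold in 7, with CA1 at 0.75, granule neurons at 0.71, CA3 at 0.70 and oligodendrocytes at 0.81. None of the 7 stayed past the fold when centred on genes of like length, where the median over classes was 0.39. In WT no class was past the fold and the ratios lay between -0.18 and 0.10.

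Insr, the insulin receptor gene, followed the same order of classes at the top. Its endothelial level was 510 CPM in the knock-in library with exercise, 274 CPM in the knock-in library without exercise, 541 CPM in the WT library with exercise and 695 CPM in the WT library without exercise. Oligodendrocytes came highest among the classes with over 1000 nuclei, with a median of 170 CPM. Exercise in the knock-in put CA1 (0.64) and MGE neurons (0.60) past the fold, and neither stayed there after centring on genes of like length. In WT no class was past the fold with exercise. Without exercise the knock-in was lower than WT in astrocytes at -1.10, CA1 at -0.67 and oligodendrocytes at -0.59, and with exercise in no class. None of the 3 stayed past the fold after that centring.

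**Figure D3:**
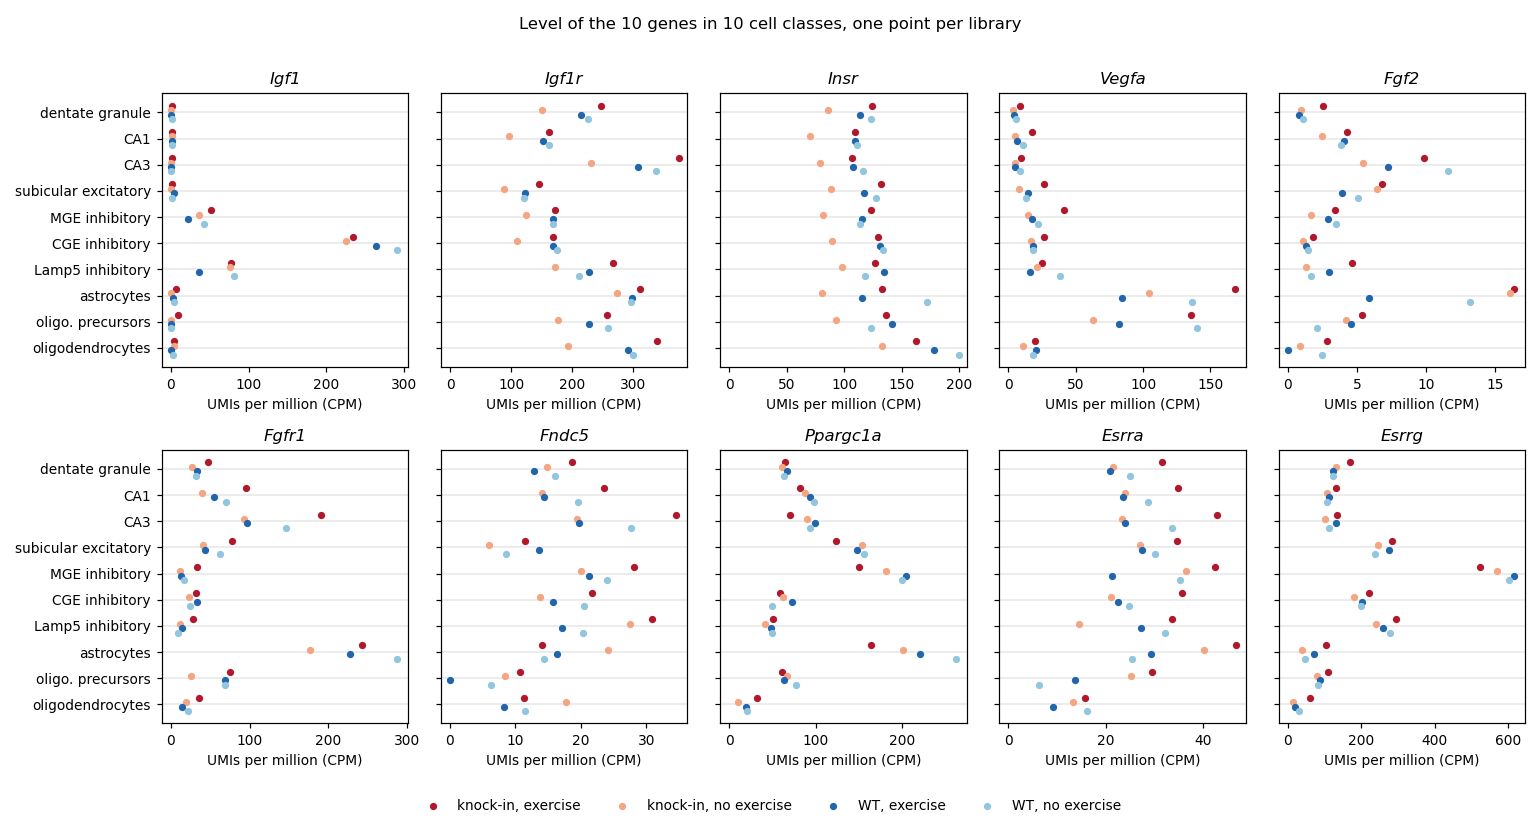
Levels in CPM of the 10 genes (1 panel each) in the 10 classes with at least 50 nuclei in every library, with 1 point per library. Igf1 stands out in CGE neurons, Esrrg in MGE neurons and Vegfa in astrocytes and oligodendrocyte precursors.

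Fndc5, the gene of the irisin precursor, was detected in neurons and glia with no class set apart. The medians of Lamp5 neurons, CA3 neurons and MGE neurons were 23.9, 23.7 and 22.6 CPM, with overlapping ranges. In CA3 it was at 34.6 CPM in the knock-in library with exercise, 19.4 CPM in the knock-in library without exercise, 19.7 CPM in the WT library with exercise and 27.6 CPM in the WT library without exercise. The knock-in library with exercise was highest, and the knock-in library without exercise and the WT library with exercise were close together at the low end. Exercise in the knock-in put subicular neurons (0.94), CA3 (0.83) and CA1 (0.75) past the fold upwards and oligodendrocytes (-0.65) downwards. Centred on genes of like length the oligodendrocyte value was -0.11, no longer past the fold. In WT only subicular neurons were past the fold, at 0.66.

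Of the metabolic regulators, Ppargc1a differed by a log2 ratio of -0.36 to 0.27 with exercise in the knock-in in the 9 classes other than oligodendrocytes. Its promoter is printed for the cyclic AMP response element, through which the gene is known to be induced in muscle and liver. The window (RefSeq, GRCm38.p6, chr5:51567676-51567975, minus strand) is written 5′ to 3′, with capitals marking the 1 match to the core TGACG, here on the opposite strand:
Ppargc1a: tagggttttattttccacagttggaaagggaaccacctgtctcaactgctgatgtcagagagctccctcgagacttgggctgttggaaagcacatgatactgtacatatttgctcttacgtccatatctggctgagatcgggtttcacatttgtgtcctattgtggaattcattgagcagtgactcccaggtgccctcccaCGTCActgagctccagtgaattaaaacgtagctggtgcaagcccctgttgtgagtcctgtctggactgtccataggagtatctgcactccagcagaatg
Counted in the same way, the core was in 3 of the 8 genes with an entry, and in 20.8% of all single windows. The estrogen-related receptor motif AAGGTCA, searched on both strands, was in Igf1r alone of these genes and in 4.72% of all single windows.

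Ppargc1a had its highest medians in astrocytes, at 210 CPM, MGE neurons, at 191 CPM, and subicular neurons, at 151 CPM, and the first 2 ranges overlapped. In MGE neurons it was at 150 CPM in the knock-in library with exercise, 181 CPM in the knock-in library without exercise, 204 CPM in the WT library with exercise and 200 CPM in the WT library without exercise. The knock-in library with exercise was the lowest. Over the 10 classes oligodendrocytes alone were past the fold with exercise in the knock-in, and in WT no class was; centred on genes of like length, astrocytes were past it downwards in the knock-in (-0.83) and CGE neurons upwards in WT (0.59).

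Esrrg, an orphan nuclear receptor gene and a PGC-1α partner, was set apart in MGE neurons. It was at 523 CPM in the knock-in library with exercise, 570 CPM in the knock-in library without exercise, 616 CPM in the WT library with exercise and 603 CPM in the WT library without exercise. These 4 levels did not overlap with those of any other class, the next being Lamp5 neurons with a median of 268 CPM and subicular neurons with 260 CPM. Reads of the antisense gene Gm36388, with 4932 UMIs, cannot be told apart from those of Esrrg if counting was not by strand, on which the sources used here say nothing, and the same holds for Esrra with Trmt112 (2159 UMIs) and Fgf2 with Nudt6 (780 UMIs).

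Over the 8 largest sub-clusters of the MGE class, Esrrg and Ppargc1a were both highest in the sub-clusters richest in Pvalb, the parvalbumin gene. In sub-clusters 4, 6 and 0 the pooled Esrrg level was 1096, 1028 and 872 CPM, the Ppargc1a level 265, 189 and 294 CPM, and the Pvalb level 75.7, 51.6 and 66.5 CPM. In sub-clusters 1 and 2, which had the most somatostatin RNA of these 8 (Sst at 174 and 214 CPM), Esrrg was at 306 and 234 CPM, Ppargc1a at 121 and 131 CPM, and Pvalb at 4.75 and 4.58 CPM. Sub-cluster 2 also held most of the Igf1 of the class, at 155 CPM, against 4.07 to 50.7 CPM in the other 7 sub-clusters plotted. The sub-clusters were made from the same nuclei, so these levels are a description.

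**Figure D4:**
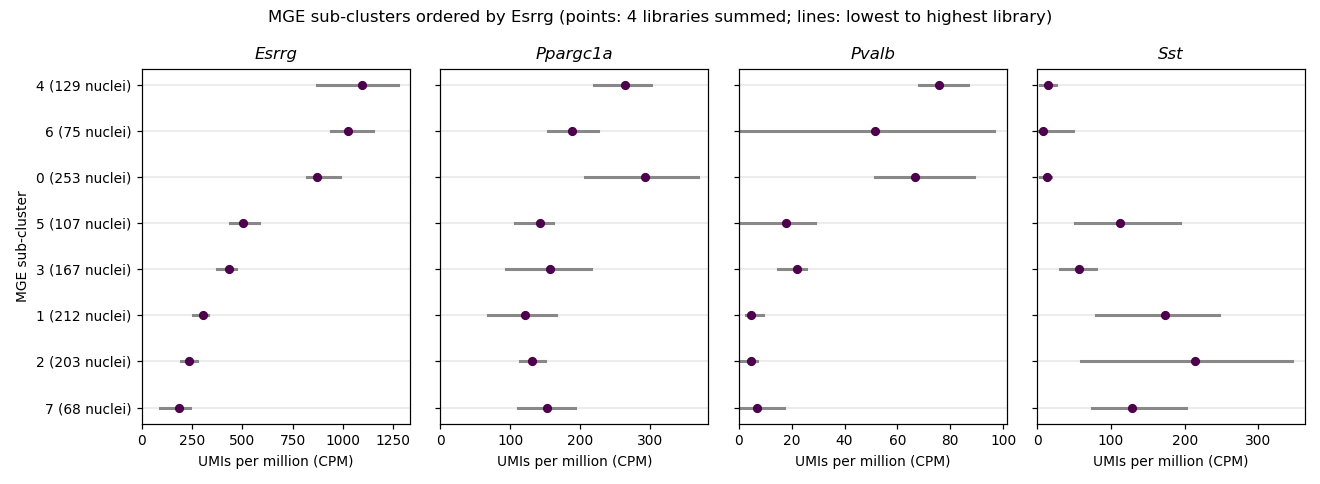
Pooled levels in CPM of Esrrg, Ppargc1a, Pvalb and Sst over the 8 largest sub-clusters of MGE inhibitory neurons, with lines from the lowest to the highest of the 4 libraries. Sub-clusters 4, 6 and 0 combine the highest Esrrg levels with the highest Pvalb levels.

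Esrra, the estrogen-related receptor alpha gene, had overlapping ranges in most classes. Its highest median was in microglia, at 50.5 CPM on 63 UMIs, followed by MGE neurons at 35.8 CPM. In MGE neurons it was at 42.3 CPM in the knock-in library with exercise, 36.5 CPM in the knock-in library without exercise, 21.3 CPM in the WT library with exercise and 35.2 CPM in the WT library without exercise. The WT library with exercise was lowest, as it was for Igf1 in the same neurons, at -0.73 to the WT library without exercise. The Esrra value was -0.46, not past the fold, when centred on genes of like length. Exercise in the knock-in put CA3 (0.88) and CGE neurons (0.76) past the fold, the CGE value being -0.11 when nuclei were thinned; granule neurons (0.74) and oligodendrocytes (0.79) joined them when so centred. With exercise the knock-in was past the fold above WT in granule neurons, CA3, MGE and CGE neurons, at 0.59 to 0.99. When so centred, MGE neurons alone of these stayed past it and oligodendrocytes (0.92) joined them. Over all settings the MGE value of this comparison ranged from 0.08 to 1.07 and the CGE value from 0.05 to 0.86.

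In oligodendrocytes, where Ppargc1a and Esrrg levels were low, both genes were highest in the knock-in library with exercise. Ppargc1a was at 32.7 CPM (139 UMIs) in the knock-in library with exercise, 10.2 CPM (23 UMIs) in the knock-in library without exercise, 18.9 CPM (25 UMIs) in the WT library with exercise and 20.9 CPM (58 UMIs) in the WT library without exercise. Esrrg was at 59.9 CPM (255 UMIs) in the knock-in library with exercise, 13.8 CPM (31 UMIs) in the knock-in library without exercise, 20.4 CPM (27 UMIs) in the WT library with exercise and 30.6 CPM (85 UMIs) in the WT library without exercise. The log2 ratio for exercise in the knock-in was 1.68 (1.03 to 2.38) for Ppargc1a and 2.12 (1.58 to 2.71) for Esrrg. The median of all genes of at least 100 kb in this class and comparison was 0.66, and that of genes under 20 kb -0.55. Neuronal markers moved with these values: the CA1 list (8 genes, all detected) summed in oligodendrocytes to 3734 CPM in the knock-in library with exercise, 2555 CPM in the knock-in library without exercise, 3208 CPM in the WT library with exercise and 3345 CPM in the WT library without exercise. With nuclei of at least 1000 genes only, the Ppargc1a ratio was -0.10. Over all settings the Esrrg ratio ranged from 0.06 to 2.47. The part of neuronal RNA was not tested. Esrrg in astrocytes was also past the fold upwards with exercise, at 1.39 (0.06 to 3.08) in the knock-in libraries and at 0.65 (0.06 to 1.25) for WT, where the value was -0.066 with no doublets left out. The knock-in value was 0.86 and no longer past the fold when centred on genes of like length.

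The genes of each pathway were listed by name, with earlier results of these data known. Those named singly below were picked from the lists for being past the fold. Insulin and IGF signalling genes (20 listed) were past the fold with exercise in the knock-in upwards in 36 of 123 measured pairs of gene and class and downwards in 17 (29.3% and 13.8%, beside 24.0% and 15.1% of all genes). The list median ran from -0.01 to 0.48 over the classes, beside 0.06 to 0.31 for all genes. Centred on genes of like length, 21 were higher and 21 lower. Akt2, a kinase below the insulin receptor, was higher in 5 neuron classes, at 1.14 in CA1 and 1.40 in subicular neurons. Mtor, the growth kinase, was higher in 8 classes at 0.73 to 1.11. In WT 2 of 129 pairs were higher and 9 lower with exercise (1.55% and 6.98%, beside 1.97% and 7.12% of all genes), with list medians of -0.27 to -0.05.

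The VEGF list (14 genes) had 18 of 70 pairs higher and 8 lower with exercise in the knock-in (25.7% and 11.4%, beside 24.0% and 15.1% of all genes), with medians from -0.08 to 0.52, and 7 higher and 10 lower when centred on genes of like length. Egln1, an oxygen sensor that marks HIF-1α for destruction, was higher in 6 classes at 0.63 to 0.85, and Hif1a itself was lower in 4 at -0.82 to -0.79. Nrp2, a VEGF coreceptor gene, was at 1.17 in CA1. The FGF list (20 genes) had 8 of 81 pairs higher and 26 lower (9.88% and 32.1%, beside 24.0% and 15.1% of all genes), with medians from -0.63 to 0.17. Fgfr2, another FGF receptor gene, was lower in 8 classes at -1.29 to -0.88. In WT 4 of 75 VEGF pairs were higher and 6 lower (5.33% and 8%, beside 1.97% and 7.12% of all genes). Of the FGF pairs 0 of 88 were higher and 3 lower (0% and 3.41%, beside the same shares).

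The list of PGC-1 and ERR partners and upstream regulators (18 genes) had 34 of 127 pairs higher and 14 lower with exercise in the knock-in (26.8% and 11.02%, beside 24.0% and 15.1% of all genes), with medians from -0.12 to 0.26, and 19 higher and 22 lower when so centred. Ppard, a nuclear receptor of fatty acid use, was higher in 9 classes at 0.92 to 2.35, Ppargc1b, the related coactivator PGC-1β, in 8 at 0.63 to 1.81, and Pprc1, another member of that family, in 6 at 0.67 to 1.25. The list of mitochondrial PGC-1 and ERR target genes (15 genes) had 10 of 106 pairs higher and 33 lower (9.43% and 31.1%, beside the same shares of all genes) and medians from -0.77 to 0.27, and 5 and 34 when so centred. Slc25a4, the ADP/ATP carrier of heart and brain mitochondria, was lower in all 10 classes at -2.49 to -0.70, and Cox5b, a subunit of cytochrome oxidase, in 7. Without exercise the same list had 26 of 110 pairs higher and 1 lower in the knock-in against WT (23.6% and 0.91%, beside 10.5% and 10.0% of all genes), with Slc25a4 higher in 9 classes and Cox5b in 7. Those 2 comparisons share the knock-in library without exercise. In WT 2 of 109 pairs were higher and 6 lower with exercise (1.83% and 5.50%, beside 1.97% and 7.12% of all genes).

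The list of interneuron genes known to depend on Ppargc1a (Pvalb, Syt2, Nefh and Cplx1) had 3 of 15 pairs higher and 0 lower with exercise in the knock-in (20% and 0%, beside 24.0% and 15.1% of all genes). Among them was Nefh, a heavy neurofilament gene, at 1.05 in CA1 and 0.75 in MGE neurons. In WT 0 of 12 pairs were past the fold in either direction, beside 9.09% of all genes. The irisin list (8 genes: integrins of the reported receptor, Bdnf and relatives of Fndc5) had 8 of 61 pairs higher and 13 lower with exercise in the knock-in (13.1% and 21.3%, beside 24.0% and 15.1% of all genes), and 2 and 21 when so centred. Itgb1, an integrin beta chain gene, was lower in 9 classes at -1.12 to -0.76, while Fndc3b was higher in 7. In WT 3 of 65 pairs were higher and 5 lower (4.62% and 7.69%, beside 1.97% and 7.12% of all genes). For exercise in WT the balance of every list but the interneuron one, which had no call, moved by over 10 percentage points or turned under another scaling, on 48 calls in all.

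The genes whose levels were most like each of the 10 over 40 points (10 classes in 4 libraries, so points share libraries and depth) were sought among 13481 genes by Pearson's r of log2 levels. Igf1 was most like Dlx6os1 (r = 0.946), a long noncoding RNA of the Dlx5 and Dlx6 locus, followed by Gm14204 (0.927) and Pde5a (0.926). Vegfa was most like Arhgef40 (0.905), Zfp219 (0.904) and Cpq (0.903), and Esrrg like Osbpl3 (0.914), Asic2 (0.899) and Azin2 (0.896). Ppargc1a was most like Mpp6 (0.873), Ctnnd2 (0.844) and Fmn2 (0.839). Fgfr1 was most like Arhgef26 (0.848), Tmco4 (0.839) and Tpcn1 (0.835), and Fgf2 was most like the same Arhgef26 (0.832), followed by Fgfr1 itself (0.792) and Cpe next (0.789). Igf1r was most like Itprid2 (0.817), Insr like Cep350 (0.830), Fndc5 like Map9 (0.815) and Esrra like Drc3 (0.841). Among pairs within the set, Fgf2 and Fgfr1 were the most alike at 0.79, and Ppargc1a stood at 0.54 with Esrra and 0.49 with Esrrg.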

How the data were processed

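The deposited matrices hold UMI counts per gene and nuclear barcode, made by the authors with Cell Ranger from a 10x 3′ v3.1 dual index kit: the submitters' processing notes name version 3.1.0 and build mm10, and the matrix headers, per the file headers, version 5.0.1. The sources used here do not state whether introns or strand entered the counting. The libraries held 9466, 10453, 7203 and 11514 barcodes and 76111556, 64158446, 66573909 and 91676884 UMIs (knock-in with and without exercise, WT with and without exercise).

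Barcodes were kept from 500 detected genes and 1000 UMIs upwards and below 5% of UMIs from mitochondrial genes. A doublet score compared each nucleus with simulated pairs among its nearest neighbours, and the 0.8% per 1000 barcodes with the highest scores, 5.51% to 8.98% per library, were left out; 39.5% to 58.7% of simulated pairs lay at or above that limit, so doublets remain. Counts scaled to 10000 were log-transformed, and 2000 variable genes, 30 components, 15 neighbours and Leiden resolution 1 gave 28 clusters (scanpy 1.11.5, leidenalg 0.10.2, Python 3.11.15). Clusters were named by marker lists, and 5207 nuclei (15.0%) stayed unnamed. Raw counts were summed per library and class and divided by the class total (CPM). Levels carry exact Poisson intervals and log2 ratios exact conditional binomial intervals; PCR and sampling of mice lie outside both. The edgeR package (4.0.16) served only for TMM factors.

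The 10 genes and all lists were chosen with earlier results of these data known. Up to 4 genes per pathway list are named, those past the fold the same way in at least 2 comparisons of 1 class or in the most classes of 1 comparison. Like genes are the 3 with the highest r of log2(CPM + 1) among genes with at least 500 UMIs. Gene lengths come from GENCODE M21, matched for 32235 of 32285 genes, and promoters from RefSeq. The ratio code was tested on simulated data.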

Additional observations from a re-analysis of the deposited data

Results flagged for a closer look

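The effect of exercise had opposite signs in the 2 genotypes, past the fold in both, for 5 pairs of a gene and a class. These differences of log2 ratios (knock-in minus WT) rest on 1 library per group and were not tested. For Vegfa the difference was 2.62 in CA1 neurons, 1.99 in CA3 neurons and 1.87 in oligodendrocyte precursors, for Fgfr1 1.62 in CA3 neurons, and for Fgf2 1.53 in CA3 neurons. Over the alternative settings Vegfa in CA1 ranged from 1.69 to 2.69 in the knock-in and lay at -0.81 to -0.51 in WT. The CA3 values of Vegfa ranged from 0.62 to 1.63 in the knock-in and from -1.20 to -0.65 in WT, and Fgfr1 from 0.77 to 1.41 in the knock-in and from -0.62 to -0.40 in WT. The Fgf2 value in the knock-in reached down to -0.01, so its opposite sign is not kept in every setting. Centred on genes of like length, Vegfa in CA3 neurons alone of the 5 stayed past the fold in both genotypes: the WT values of the other 4 were no longer past it. In oligodendrocyte precursors the WT value for Vegfa rests on 51 nuclei with exercise, and its interval ends at -0.00.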

How the results depend on the processing

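Of 1019 alternative values for the 95 single values past the fold, 916 kept their sign and stayed within their counting interval, 95 moved and 8 changed sign. Those of the 14 alternative settings that change only the UMI minimum or the fold limit enter the counts past the fold alone, not these single values. Thinning to 1500 UMIs per nucleus reversed the exercise ratio in the knock-in of Fgf2 in CA1 (-0.12) and CA3 (-0.0078) and of Esrra in CGE neurons (-0.11). With at least 1000 genes per nucleus, Ppargc1a in oligodendrocytes was -0.10 for exercise in the knock-in, 0.80 for genotype without exercise and -0.31 for genotype with exercise, and Esrrg there 0.82 for genotype without exercise; that setting named no CA3 nuclei and left astrocytes under the minimum. With no doublets left out, Esrrg in astrocytes was -0.066 for exercise in WT. The cause was not tested in these cases.

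The number of pairs past the fold fell below the main 36, 12, 20 and 22 (exercise in the knock-in, exercise in WT, genotype without exercise, genotype with exercise) by construction with a 200 UMI minimum (19, 4, 10, 11) and a 2-fold limit (14, 2, 6, 10), and with thinning (16, 5, 13, 13). Exercise in WT gave 7 with at least 1000 genes per nucleus. Genotype without exercise gave 13 under TMM and 12 under totals without mitochondrial and the 50 highest genes. For the pathway lists the main 228, 48, 82 and 150 became 139, 12, 36 and 76 with 200 UMIs, 86, 10, 22 and 46 at 2-fold, and thinning gave 120, 24 and 67 for all but genotype without exercise. Centring on genes of like length, chosen after seeing the data, gave 25 higher and 1 lower, 4 and 5, 0 and 14, and 15 and 2. No paired analysis was possible because each group has 1 library.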
